A study of Mus musculus with 12 samples.

Results

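Okazaki fragment sequencing of epiblast-like cells (EpiLCs) that carried catalytically dead KMT2C and KMT2D was compared directly with that of EpiLCs that had lost both proteins. The comparison used 4 of the 12 samples of the series, 2 replicates of the double catalytic dead cells (KMT2C/D dCD) and 2 of the double knockout cells (KMT2C/D dKO), all chosen by their sample labels. EpiLCs are mouse embryonic stem cells (ESCs) taken from the naive to the formative state, here by about 63 h without Lif and 2i. The KMT2C/D dCD cells came from a male R1 line of 129 background with conditional catalytic dead KMT2D. The KMT2C/D dKO cells came from a KMT2C knockout line of mixed C57BL/6 and 129 background and undetermined sex, in which 4-hydroxytamoxifen deleted KMT2D. No KMT2C activity was left in either group, and the KMT2C KO control, read here only for values side by side, lacked KMT2C as well. The only KMT2C knockout cells listed in the methods are those from which the dKO was made, so that dKO and control most likely share a parental line, while dCD comes from another. The remaining 8 samples were the EpiLC control and the naive counterparts of all 3 genotypes. Genotype and parental line cannot be told apart in this comparison.

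KMT2C and KMT2D are the enzymes that place most of the single methyl groups on lysine 4 of histone H3 at enhancers, and they also act as scaffolds for other proteins, so that loss of the activity and loss of the protein are different lesions. DNA replication starts at many places, and a pair of forks leaves each of them in opposite directions. On the lagging strand of a fork the DNA is made as short Okazaki fragments, so that the strand to which these fragments map tells which way the fork moved. A rightward fork gives fragments on the Crick strand and a leftward fork gives fragments on the Watson strand. Where the Crick percentage, Crick reads over the sum of Watson and Crick reads, rises from left to right, forks start, and where it falls, forks meet.

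The 2 replicates of a group had been summed into 1 track before deposit, so no spread between replicates could be measured and no test was run. Each value below is the authors' pooled value, and every interval is a 95% interval that covers counting error only. Differences were called by size alone. After scaling to whole reads the tracks held 13601460 reads for EpiLC dCD and 12962445 for EpiLC dKO, about 129 and 123 reads per 25 kb. The EpiLC control held 11407678 reads, and the naive tracks of dCD, dKO and control held 3655095, 3937871 and 4409068. The tracks hold no RNA, so that the cell state could not be checked by marker genes. The genes targeted in these lines could not serve as a check of the labels either. Kmt2d, at chromosome 15, 98831669 to 98871204 (mm10), had reads in every one of its 41 bins of 1 kb in both EpiLC tracks, 311 in dCD and 291 in dKO, and its share of reads was 1.02 times as high in dCD. The body of Kmt2c had 1562 reads in dCD and 1437 in dKO, a ratio of 1.03 per read sequenced, with 2 of 228 bins at 0 in each.

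Dlk1, Meg3 and Mkrn3, the gene starts in or beside the 500 kb windows that differed most, and Rpl4, the ribosomal protein gene at which the strand bias differed most, are shown by the 250 bases before their transcription start, from RefSeq on GRCm38.p6, 5′ to 3′ on the strand of the gene. Capitals mark each CG, the dinucleotide at which mammalian DNA is methylated. Dlk1 (chr12:109452573-109452822, plus strand) encodes a growth regulator expressed from the paternal copy. Meg3 (chr12:109540746-109540995, plus strand) is a long noncoding RNA expressed from the maternal copy of the same imprinted cluster. Mkrn3 (chr7:62420154-62420403, minus strand) is a paternally expressed gene of the Prader-Willi region, and Rpl4 (chr9:64173137-64173386, plus strand) encodes a protein of the large ribosomal subunit. The windows held 8, 10, 10 and 10 CGs, against a median of 6 over 32851 RefSeq promoter windows of that length. Such counts are common, since 43.0% of those windows held 8 or more and 37.8% held 10 or more.
Dlk1: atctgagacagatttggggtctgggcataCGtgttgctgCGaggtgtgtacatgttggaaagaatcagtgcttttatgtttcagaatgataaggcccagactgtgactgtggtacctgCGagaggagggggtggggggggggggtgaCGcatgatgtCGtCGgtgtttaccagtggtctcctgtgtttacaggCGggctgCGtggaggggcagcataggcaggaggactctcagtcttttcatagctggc
Meg3: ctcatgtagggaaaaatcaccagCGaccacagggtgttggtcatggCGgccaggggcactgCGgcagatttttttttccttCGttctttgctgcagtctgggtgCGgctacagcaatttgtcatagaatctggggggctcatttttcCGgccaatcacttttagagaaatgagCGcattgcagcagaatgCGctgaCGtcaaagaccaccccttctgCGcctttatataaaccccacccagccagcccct
Mkrn3: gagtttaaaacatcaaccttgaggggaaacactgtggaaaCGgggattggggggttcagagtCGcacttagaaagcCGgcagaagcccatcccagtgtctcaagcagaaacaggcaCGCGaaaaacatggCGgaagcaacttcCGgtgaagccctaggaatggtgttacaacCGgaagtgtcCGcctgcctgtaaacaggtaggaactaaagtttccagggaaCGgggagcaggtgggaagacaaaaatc
Rpl4: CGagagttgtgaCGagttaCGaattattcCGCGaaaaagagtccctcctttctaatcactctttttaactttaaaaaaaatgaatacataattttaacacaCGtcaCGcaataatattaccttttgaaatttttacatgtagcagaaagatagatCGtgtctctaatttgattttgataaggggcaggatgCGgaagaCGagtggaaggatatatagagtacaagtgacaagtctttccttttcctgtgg

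Across the genome, forks took the same direction in most of the windows in both mutants, but that direction was more strongly polarised in dCD than in dKO. In fixed 500 kb windows with at least 500 reads in both tracks, 5029 of 5258, the Crick percentage of dCD and dKO had a Pearson correlation of 0.958 across windows, all taken from the same pair of tracks, and 94.4% of the windows differed by less than 5 percentage points. The amplitude, the standard deviation of the Crick percentage over windows after removal of the binomial part, was 8.60 points in dCD, 7.24 in dKO and 6.43 in the control. The ratio of dCD over dKO was 1.19 (1.18 to 1.19), and it lay between 1.12 and 1.26 on the 20 single chromosomes. In 50 kb windows the amplitude was 12.3 points in dCD, 10.7 in dKO and 9.76 in the control, a ratio of 1.15 (1.15 to 1.16). The order of the 3 tracks was the same at each of 7 window sizes from 10 kb to 2000 kb.

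The extremes moved with the amplitude. Windows of 500 kb in which at least 70% of the reads were Crick reads numbered 49 in dCD and 4 in dKO, and those with at most 30% numbered 43 in dCD and 4 in dKO. Windows were also sorted by the control, which is neither of the pair but most likely of the same parental line as dKO. In the 370 windows with 60% or more Crick reads in the control, the mean was 65.8% in dCD and 63.4% in dKO, and dCD was higher in 325 of them. In the 329 windows with 40% or less, the mean was 34.1% in dCD and 36.4% in dKO, and dCD was lower in 280. In the 2853 windows between 45% and 55% in the control, the means were 49.92% in dCD and 49.96% in dKO. The naive tracks showed the same order, with an amplitude at 500 kb of 11.6 points in dCD, 9.0 in dKO and 8.02 in the control. The ratio of EpiLC dCD over dKO went from 1.16 in the lowest of 4 equal GC classes of 500 kb windows to 1.21 in the highest, and from 1.15 in windows without a protein-coding transcription start site (TSS) to 1.21 in windows with 6 or more.

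**Figure D1:**
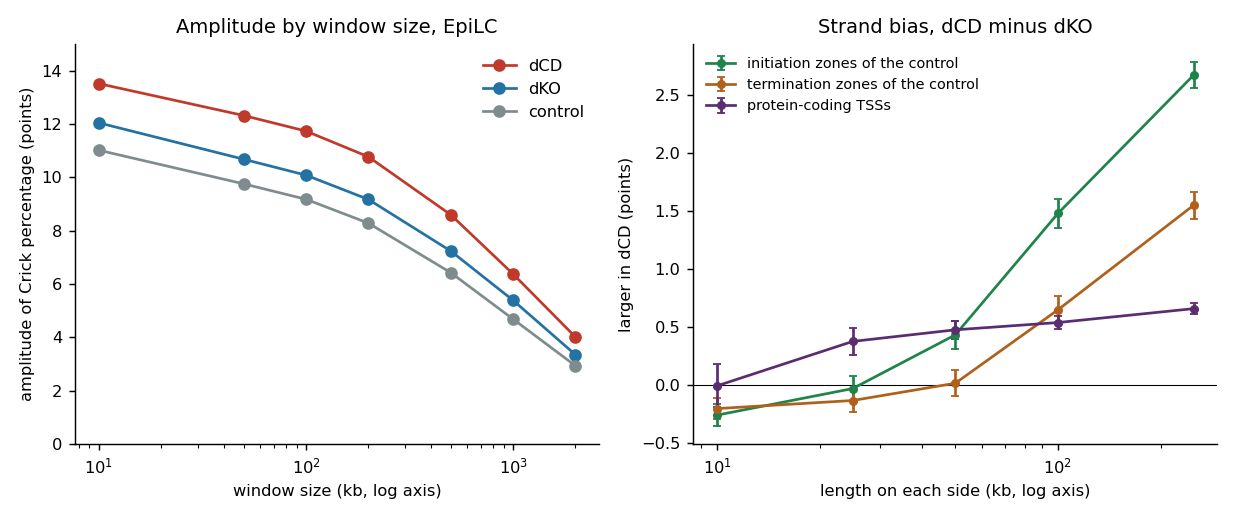
Left, amplitude of the Crick percentage in percentage points (y axis) over fixed windows of 10 to 2000 kb (x axis, log scale) in the summed EpiLC tracks of dCD, dKO and control. Right, strand bias in dCD minus that in dKO in percentage points, counted as positive where it was larger in dCD, against the length measured on each side (log scale), at initiation and termination zones called in the control and at protein-coding TSSs; bars are 95% counting intervals, and sites needed 1 read per kb on each side. The dCD amplitude lies above that of dKO at every size, while at initiation zones the difference was 2.67 points at 250 kb and close to 0 at 25 kb.

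How far this reached down was seen at places where forks start or meet. Strand bias, the Crick percentage on the right flank of a site less that on its left flank, was measured in dCD and dKO at initiation zones, local maxima of 10 points or more called in the control track, which has the same likely tie to dKO. With 25 kb on each side, the 27098 zones had a mean strand bias of 6.53 points in dCD and 6.56 in dKO, a difference of -0.0278 (-0.133 to 0.0773). This value moved with the settings. It was 0.326 (0.100 to 0.551) with a zone threshold of 20 points and 0.246 with zones of the naive control. After deviations in dCD were divided by the amplitude relative to dKO it was -0.898. With 250 kb on each side, a length chosen after the data were seen, 2162 zones had 19.8 points in dCD and 17.1 in dKO, and dCD was larger at 72.5% of them (difference 2.67, interval 2.56 to 2.78). At the 2149 termination zones of that length the values were -15.2 in dCD and -13.6 in dKO. With 25 kb on each side, 28381 termination zones had -6.03 in dCD and -6.16 in dKO (difference 0.131, interval 0.0283 to 0.233). Zones close to genes and far from them differed in sign at 25 kb. The 5486 initiation zones within 10 kb of a TSS had 10.47 points in dCD and 10.02 in dKO (difference 0.453, interval 0.232 to 0.673), while the 18112 zones more than 25 kb from any TSS had 4.95 in dCD and 5.17 in dKO (-0.214, interval -0.347 to -0.0802). Zone values at short lengths rest on a threshold that counting noise in the control also passes, as the mean of 17.0 points in the control against 6.53 in dCD showed.

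Few loci departed from this common pattern. The Crick percentage was higher in dCD by 10 points or more in 2 of the 5029 windows of 500 kb (0.0398%) and lower by 10 points or more in 5 (0.0994%). The standard deviation of the difference over windows was 2.66 points, against 1.45 from binomial counting of independent reads, a value that PCR copies would raise. In all 7 windows the control lay closer to dKO than to dCD, and in all 7 the naive difference between dCD and dKO had the same sign. Closeness of dKO and control cannot be told apart from their likely shared line, here and in all loci below. Over all windows 50.3% of the naive differences were above 0, and the naive and EpiLC differences had a correlation of 0.419. Just outside the threshold lay a window on chromosome 10 at 3000001 with -9.97 points and the vomeronasal receptor cluster on chromosome 6 with 9.42. Of the named windows, 5 lay at the low end and 5 at the high end, and the naive differences of all 10 had the sign of the EpiLC differences.

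**Figure D2:**
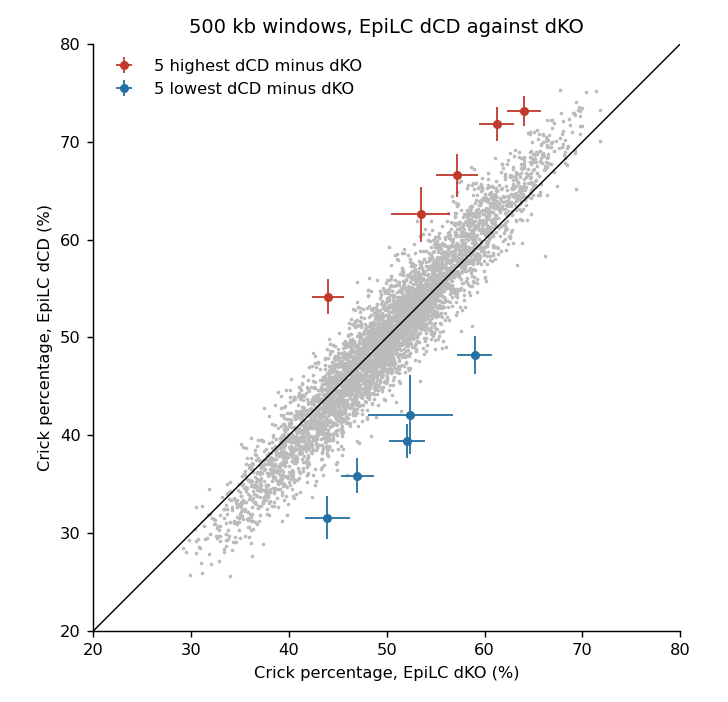
Crick percentage in 500 kb windows of EpiLC dCD (y axis) against EpiLC dKO (x axis), 5029 windows in grey with the line of equal values. Colours mark the 5 windows with the highest and the 5 with the lowest difference, with 95% Wilson intervals; above 60% and below 40% the grey cloud lies farther from 50% in dCD than in dKO.

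The lowest of all windows lay in the imprinted Dlk1-Dio3 cluster. At chromosome 12, 109000001 to 109500000, which holds Wdr25, Begain and Dlk1, the Crick percentage was 39.4% in dCD, 52.1% in dKO and 51.3% in the control, a difference of -12.6 points (-15.2 to -10.1). The next window to the right, which holds Meg3 and Rtl1, went the other way with 66.0% in dCD, 57.6% in dKO and 55.9% in the control. Both together describe a switch from leftward to rightward forks that was steeper in dCD. In the 250 kb to the left of the Meg3 start (109541001) 33.3% of dCD reads were Crick reads, and in the 250 kb to its right 71.5% were, a strand bias of 38.2 points. The strand bias there was 11.97 points in dKO and 15.9 in the control, and the difference between dCD and dKO was 26.2 points (21.7 to 30.7). In naive cells the strand bias at Meg3 was 48.1 points in dCD, 14.3 in dKO and 15.1 in the control. In both states dKO and control, of likely the same line, lay within 4 points of each other and dCD lay apart.

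At finer resolution, the Crick percentage in dCD fell to 21.9% in the 50 kb window at 109300001, where dKO had 43.9% and the control 42.1%, and it reached 74.3% at 109550001, where dKO had 59.6% and the control 61.6%. Over the 350 kb from 109150001 to 109500000 the level was 30.3% in dCD (28.3 to 32.3) and 45.1% in dKO (42.9 to 47.4). Over the 250 kb from 109550001 to 109800000, which run from inside Meg3 past Rtl1, it was 72.0% in dCD and 60% in dKO. Within 25 kb to the left of the Dlk1 start the level was low in dCD only, at 36.0%, against 52.5% in dKO and 52.2% in the control. Within 25 kb to its right it was 41.2% in dCD, 54.97% in dKO and 45.2% in the control. The strand bias there, 5.28 in dCD and 2.498 in dKO, did not differ beyond counting error (interval -12.0 to 17.6). Read density differed too. From 109150001 to 109800000 the share of reads was 1.15 times as high in dCD as in dKO, 1.14 times that of the control, and 1.27 times as high in naive dCD as in naive dKO, while dKO over control was 0.992. The ends of this stretch, and of those on chromosomes 7, 11 and 18 below, were placed after the profiles had been seen.

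Next came a window beside another imprinted region. At chromosome 7, 62500001 to 63000000, with A26c2 as its only protein-coding gene, the Crick percentage was 31.5% in dCD, 43.9% in dKO and 40.5% in the control (difference -12.4, interval -15.6 to -9.21). Mkrn3, Magel2, Ndn and Peg12, paternally expressed genes, lie just to the left, between 62346569 and 62464510. With 100 kb on each side of the Mkrn3 start, forks left it in both directions in every track, with a strand bias of 20.8 points in dCD, 22.5 in dKO and 24.1 in the control. With 250 kb on each side it was 9.67 points in dCD, 18.3 in dKO and 16.1 in the control (difference -8.66, interval -14.8 to -2.51), and the right flank of dCD had 44.5% Crick reads. To the left of these genes, from 61900001 to 62400000, the tracks were alike at 37.5% in dCD and 38.8% in dKO (difference -1.32, interval -4.21 to 1.58). From 62450001 to 63000000 the values were 33.1% and 45.6%. The naive values over the same stretch were 34.8% in dCD and 46.3% in dKO.

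On chromosome 11, 57500001 to 58000000, the Crick percentage was 35.8% in dCD, 47.0% in dKO and 45.9% in the control (difference -11.1, interval -13.6 to -8.65). The window holds Fam114a2, Mfap3, Galnt10, which encodes an enzyme that starts O-linked glycosylation, Sap30l, and Hand1, a transcription factor of heart and trophoblast development. At 57650001, the window of 50 kb at the start of Galnt10, dKO and control rose to 59.1% and 57.3%, and dCD had 38.2%. From 57550001 to 57950000 dCD stayed at 34.4% and dKO at 49.9%, whereas the 400 kb to the left had 29.1% and 28.8%. Thus dKO and control rose above 50% beside the Galnt10 start, and dCD rose less and stayed below it. The naive values from 57550001 to 57950000 were 36.8% in dCD and 50.8% in dKO, with 52.2% in the control. In naive cells the 400 kb to the left differed too, at 18.9% in dCD and 24.7% in dKO (difference -5.84, interval -10.1 to -1.50). The share of reads over this stretch was 0.789 times that of dKO, and its part in the strand difference was not tested.

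On chromosome 18 a pair of neighbouring windows moved in opposite directions. The window from 66000001, with Lman1, Ccbe1 and Pmaip1, a target of p53 that promotes cell death, had 54.2% in dCD, 44.0% in dKO and 43.8% in the control (difference 10.2, interval 7.74 to 12.6). The window from 66500001, with Mc4r, the melanocortin receptor that restrains feeding, had 48.2% in dCD, 59.0% in dKO and 61.9% in the control (-10.8, interval -13.4 to -8.10). Here the switch was shallower in dCD. With 250 kb on each side of the Pmaip1 start, the strand bias was 18.02 points in dCD, 36.6 in dKO and 33.0 in the control, while with 100 kb it was 24.0, 30.8 and 27.7. Thus the wide switch was weaker in dCD where that at Meg3 was stronger. The share of reads in these windows was 0.834 and 0.803 times that of dKO.

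**Figure D3:**
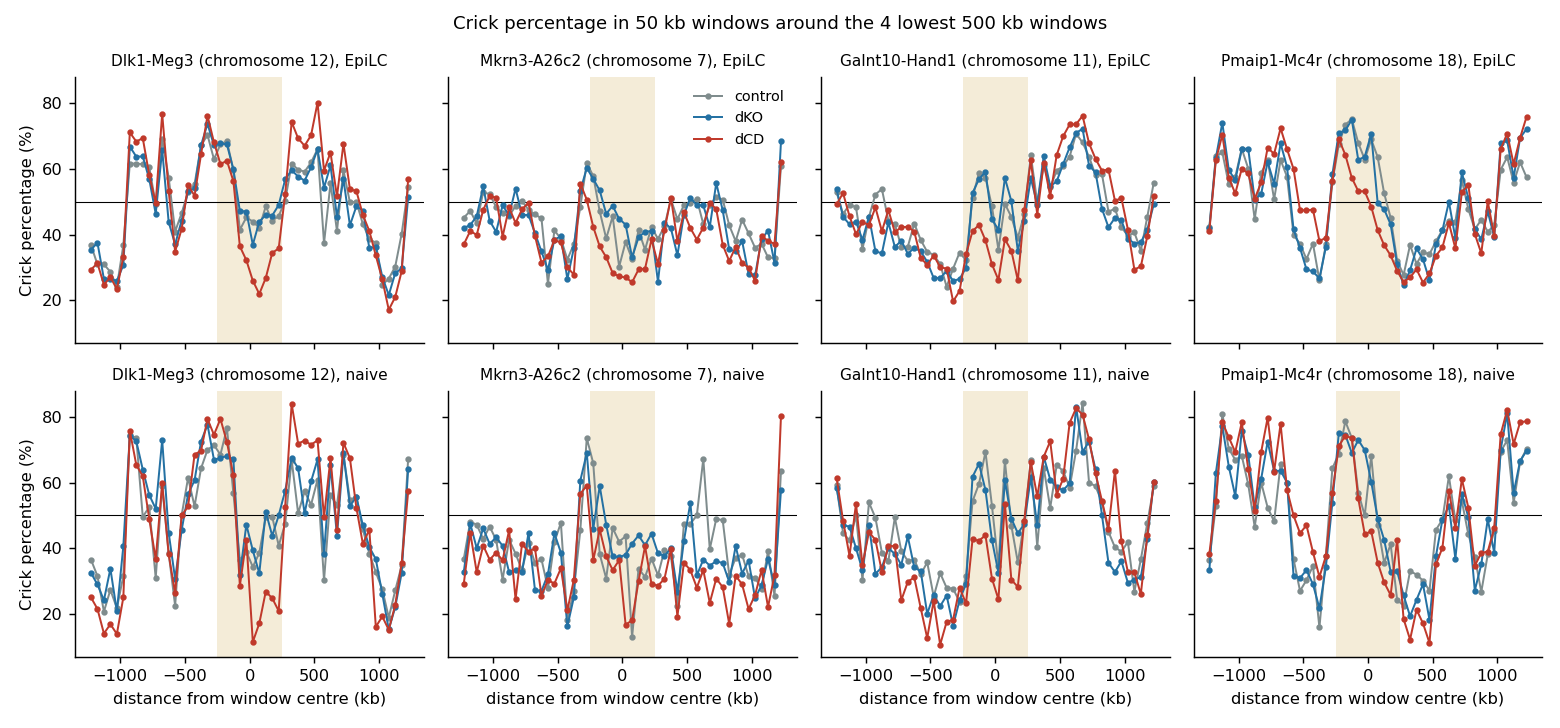
Crick percentage in 50 kb windows (y axis) against the distance from the centre of the 500 kb window (x axis, kb) at the 4 lowest windows, EpiLC tracks above and naive tracks below; the shaded band is the 500 kb window, and windows with under 20 reads are not drawn. The dCD line departs from dKO and control inside or beside the band in both states, with a deeper trough and higher peak at Dlk1-Meg3 and a lower rise at Galnt10.

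The other named windows had smaller naive differences. Sema3e, a guidance cue for axons and vessels, lies in the window with the highest difference, on chromosome 5 at 14000001, with 71.8% in dCD, 61.2% in dKO and 64.6% in the control (10.6, interval 8.08 to 13.1), but with naive values of 58.8% and 55.3%. Bbs9, a part of the ciliary BBSome, lies on chromosome 9 at 22500001 with 73.2% in dCD and 64.0% in dKO. Slc6a14, an amino acid transporter, lies on chromosome X at 21500001 with 62.6% and 53.5%. In each of these 3 windows the naive interval of the difference included 0. The vomeronasal receptor clusters on chromosome 6 at 57000001 and on chromosome 7 at 23000001 had 66.6% against 57.2% and 42.0% against 52.4%. The second of these also holds Nlrp4e and Nlrp5, genes of the oocyte, and had only 571 and 502 reads. Its naive difference of -5.84 had an interval that included 0 as well (-16.1 to 4.53). When deviations from 50% were divided by the amplitude, 2 windows remained past 10 points, the Dlk1 window at -11.0 and the Mc4r window at -10.49.

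In 50 kb windows, 48296 of 52665 with at least 100 reads in both tracks, dCD was higher by 15 points or more in 205 (0.424%) and lower in 212 (0.439%). The standard deviation of the difference was 5.57 points, against 4.47 from binomial counting, so that much of the spread at this size was of the order of counting error. The naive difference had the sign of the EpiLC difference in 137 of 203 windows called higher and in 148 of 212 called lower, and its medians were 6.34 and -5.06 points, against 0.0407 over all windows. Chromosome X held 68 of the 417 windows called, 3.97% of its 1713 windows. Its depth was lower, with 368224 dCD reads and 290 usable windows of 500 kb, against 818757 reads and 314 windows on chromosome 3. Counting error was therefore wider on X, and what it adds to this share was not tested. The median of the lower read number was 206 in called windows and 258 in all. Only 6 windows had 60% or more Crick reads in one track and 40% or less in the other.

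At gene starts the difference was small. Over 20781 of 21755 protein-coding TSSs that had 25 reads or more per side in both tracks, the mean strand bias within 25 kb was 4.98 points in dCD, 4.60 in dKO and 4.28 in the control, and the difference was 0.378 points (0.266 to 0.491). The mean difference was above 0 on 19 of 20 chromosomes, from -0.0103 on chromosome 1 to 0.892 on chromosome 8. It was 0.613 in naive cells, with 6.87 points in dCD and 6.26 in dKO. In 4 equal classes of TSSs by the number of CGs within 500 bases the differences were 0.199, 0.311, 0.566 and 0.438 points, from few to many. Without the part that follows local T minus A content, the EpiLC means over all TSSs were 2.08 in dCD and 1.79 in dKO. Their difference was then 0.283. The direction turned when the amplitude was taken out, where the mean difference was -0.285 points. With 10 kb on each side the difference was within counting error of 0, at -0.0417 over 19464 TSSs with 25 reads a side and at -0.00416 (-0.190 to 0.182) over 20690 TSSs with 10 reads a side.

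Single TSSs were at the limit of depth. dCD exceeded dKO by 20 points or more at 263 TSSs (1.27%) and fell below it by as much at 221 (1.06%), together 2.33% of TSSs. The standard deviation over TSSs was 8.64 points, against 8.47 from binomial counting. Of the called TSSs with at least 10 naive reads a side in dCD and dKO, the naive difference had the same sign at 132 of 238 that were higher and at 99 of 202 that were lower, with medians of 2.22 and 0.687 points against 0.679 over all TSSs. Over all TSSs with such naive reads, 52.0% of the naive differences were above 0. So the called TSSs as a group did not recur in the naive tracks.

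The 17101 TSSs that had 100 reads or more per side were ranked by the difference. Intervals given for the extremes do not allow for that choice. Among these TSSs, the highest was that of Tmem125, which encodes a membrane protein, on chromosome 4 at 118544044. Its strand bias was 18.3 points in dCD, -12.5 in dKO and -14.2 in the control (difference 30.7, interval 16.4 to 45.03), and 14.3 against -11.6 in naive cells. The other 7 highest were Rars, Zbtb7a, Smim20, Gdi2, Gpr1, Olfr90 and Chtf8, with differences from 27.9 to 29.8 points. Rars charges arginine tRNA, Gdi2 recycles Rab GTPases, and Chtf8 is part of the clamp loader used in cohesion of sister chromatids. Zbtb7a, a transcription factor of blood development, had 26.1 points in dCD and -3.49 in dKO, and 16.3 as its naive difference. The naive differences of Smim20, Gdi2 and Chtf8 were below 0.

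At the lowest end stood Zfp319, a zinc finger gene on chromosome 8 at 95331950, with -19.9 points in dCD, 13.0 in dKO and -7.33 in the control (difference -32.8, interval -48.1 to -17.6) and a naive difference of 16.2. Mex3c, which encodes an RNA-binding ubiquitin ligase, had -6.34 in dCD and 25.1 in dKO (difference -31.4), and its naive difference of -24.9 had the same sign. The other 6 of the lowest 8 were Fbln5, Prr5, Ugt2b5, Tas1r3, Depdc1a and Tpp2, with differences from -31.7 to -27.8, and of these only Tas1r3, a subunit of taste receptors, had a naive difference below 0. At Kmt2c the strand bias was 0.275 points in dCD, 20.7 in dKO and 11.7 in the control (difference -20.4, interval -34.8 to -5.98), and its naive difference was 14.4. At Kmt2d it was 8.04 in dCD and 4.33 in dKO.

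Gene lists had narrower counting intervals than single genes, since their reads add up. The largest mean difference among the 12 lists was that of the cytosolic ribosomal protein genes. Their 83 TSSs had a mean strand bias of 9.71 points in dCD, 5.88 in dKO and 8.15 in the control, a difference of 3.83 (2.11 to 5.55), and dCD was higher at 68.7% of them against 52.1% of all TSSs. The median was 3.92 against 0.460 over all TSSs. In naive cells the mean was 13.0 in dCD and 9.33 in dKO, a difference of 3.66. Only Rpl4 passed the size threshold, 1.2% of the list against 2.33% of all TSSs, with 9.77 in dCD, -12.0 in dKO and -3.14 in the control (difference 21.8, interval 7.66 to 36.0), and its naive difference was -11.5. Rpl13a followed with 17.0 points, and the lowest were Rpl36a at -18.1 and Rpl5 at -13.6. With the amplitude taken out, that is with deviations from 50% in dCD and dKO brought to one scale, the mean difference of the list was 2.54.

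The 39 Hox genes, which set position along the body axis and lie in 4 clusters so that neighbours share reads, had 8.91 points in dCD, 5.49 in dKO and 7.06 in the control (3.42, interval 1.34 to 5.50). Hoxa6 and Hoxa3 were the 2 past the threshold at 23.1 and 21.0 points, 5.13% of the list against 2.33% of all TSSs. Their starts on chromosome 6, at 52208722 and 52213336, are so close that both values rest on nearly the same reads, and their naive differences were -10.57 and -24.6. Hoxa9 and Hoxa4 were lowest at -10.54 and -7.16. In naive cells the list had a mean difference of -0.767, and with the amplitude taken out the EpiLC mean was 2.24. Developmental transcription factors (36 TSSs) had 12.9 in dCD and 10.45 in dKO, a difference of 2.45 (-0.105 to 5.00), and 0.732 with the amplitude taken out. None passed the threshold, against 2.33% of all TSSs, a share that leaves less than 1 gene in a list of this size. Olig2 was highest at 17.7 and Gsc, a factor of the gastrula organizer, lowest at -15.4.

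In EpiLCs the mean differences of the pluripotency genes lay within counting error. The 19 formative and primed factors had 11.8 points in dCD and 9.13 in dKO, a difference of 2.68 (-0.958 to 6.31), with Nodal at 15.02 among the high members and Pou3f1 at -14.7 and Dnmt3a at -11.2 as the lowest. The 16 naive pluripotency factors had 9.65 in dCD and 8.14 in dKO (1.51, interval -2.78 to 5.81), from Tbx3 at 14.5 to Tcl1 at -13.2, with Dppa3 at 13.7 and Esrrb at -12.5. In naive cells the mean differences were 7.14 points for the naive factors (16.9 in dCD and 9.78 in dKO) and 3.95 for the formative factors. No interval was computed for these naive means, which rest on fewer reads, about 34.5 per 25 kb in dCD and 37.2 in dKO. With the amplitude taken out the EpiLC differences were 0.229 and 1.104.

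The genes of the replication machinery and of the KMT2 complexes had intervals that included 0. The 28 origin licensing and firing factors had a difference of 0.496 points (-2.42 to 3.41), from Orc4 at -13.8 to Mcm2 at 14.4, with Gins3 at 11.3 and Orc6 at -11.2. The 20 enzymes of Okazaki fragments had 0.537 (-2.92 to 3.99), with Rnaseh2a, a subunit of the nuclease that removes ribonucleotides from DNA, past the threshold at 20.04 but at -24.3 in naive cells, Pola1 at 10.1, and Rfc5 and Fen1 lowest at -15.2 and -13.8. The 19 regulators of replication timing and forks had 1.053 (-2.64 to 4.75), and their median was -1.82. Atrx was highest at 19.8 and Hira next at 16.1, with Rad21 at -12.7 and Tipin at -11.9 at the low end. The 17 subunits of the KMT2 family complexes had 0.382 (-3.43 to 4.19), with Kdm6a at 14.9, Men1 at 12.5 and Hcfc1 at -15.3, and Kmt2c past the threshold. The single calls were 5% of the Okazaki enzymes and 5.88% of the KMT2 subunits, against 2.33% of all TSSs, and 1 gene is too few to read a share from. In naive cells the mean differences were -1.202, -2.23 and -1.81 for the licensing factors, Okazaki enzymes and timing regulators, and 1.504 for the KMT2 subunits. In each of these 4 lists the mean difference fell below 0 once the amplitude was taken out, to -0.602, -0.167, -0.0515 and -0.802 in the order given.

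The 30 long neural and fragile site genes had 1.76 points (-1.53 to 5.05), with Ptprd past the threshold at 23.1 (3.33% of the list against 2.33% of all TSSs) but at -17.7 in naive cells, and Nrxn3 and Cntn5 lowest at -15.7 and -13.6. With the amplitude taken out the mean difference of these genes was 0.686. In the large gene families the means were near 0. The 1083 olfactory receptor TSSs, of 1093, had 0.342 points in dCD and 0.296 in dKO, a difference of 0.0463 (-0.427 to 0.520), with 19 past the threshold upwards and 22 downwards, 3.79% of the list against 2.33% of all TSSs. The 338 zinc finger genes, of 365, had 4.92 and 4.85, a difference of 0.0759 (-0.789 to 0.941), with 3 upwards and 5 downwards, 2.37% against the same 2.33%.

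**Figure D4:**
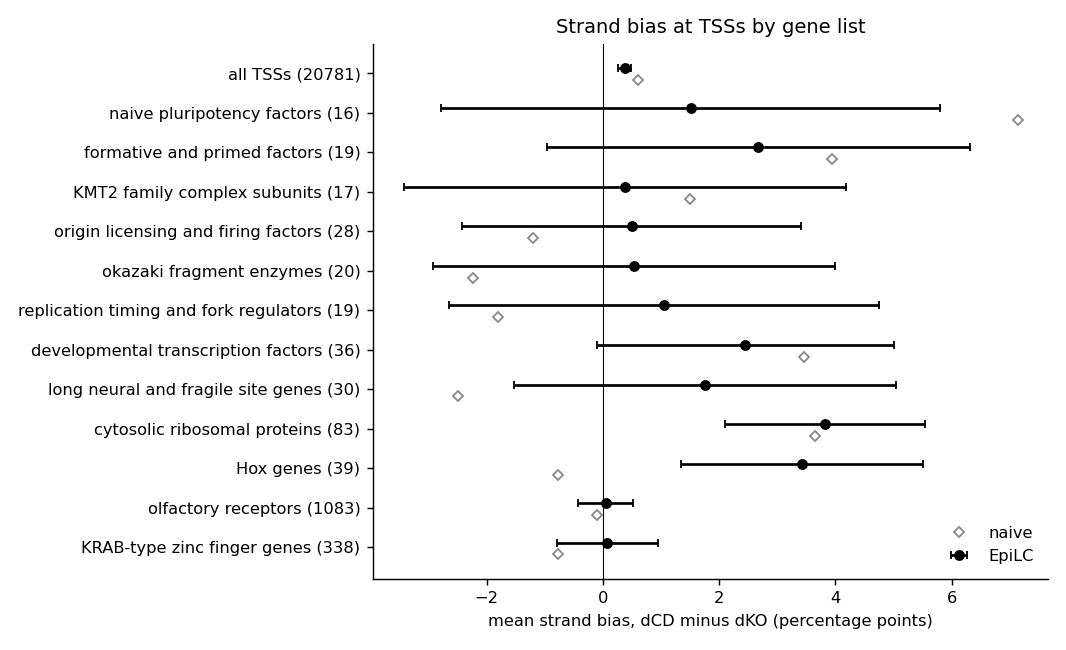
Mean strand bias in dCD minus that in dKO (x axis, percentage points) at all protein-coding TSSs and in 12 gene lists (y axis, number of TSSs in parentheses). Filled circles are EpiLC with 95% counting intervals and open diamonds are naive cells, for which no interval was computed. The intervals of the ribosomal protein and Hox genes, and of all TSSs, lie above 0 in EpiLCs. The naive value of the Hox genes lies below 0, on fewer reads.

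The number of fragments per region, which follows how much DNA was labelled and how much DNA of the region the cells held, was compared as the share of all reads in 5 Mb windows. Of 514 windows, 338 (65.8%) differed by at most 5%. The share was at least 1.1 times as high in dCD in 24 windows (4.67%) and at least 1.1 times as high in dKO in 23 (4.47%). In naive cells 9 of the 24 and 14 of the 23 passed the same fold, and 17 and 22 lay on the same side of 1. Among the 23 windows lower in dCD, the median share over control was 0.862 in dCD and 1.01 in dKO, and dCD was farther from the control in all 23. Among the 24 windows higher in dCD it was 1.096 in dCD and 0.970 in dKO, and dCD was farther in 17. In EpiLCs, windows rich in GC had lower shares in dCD, 0.968 times those of dKO in the highest GC class of 500 kb windows and 1.054 times in the lowest. In naive cells the order was the opposite, with 1.034 times in the highest class and 0.957 times in the lowest.

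The largest shifts formed long blocks in which dKO stayed close to the control, with which it likely shares its line. On distal chromosome 2, from 163000001 to 172500000, the share in dCD was 1.35 times that in dKO, with 1.35 in naive cells, and dKO over control was 1.04. From 178000001 to 182000000 on the same chromosome it was 1.37, and 1.41 in naive cells. On chromosome 18, from 79500001 to 90500000, it was 0.609, and 0.682 in naive cells, with dKO over control at 1.02. The 34 genes there include Nfatc1, Sall3, Mbp, which encodes myelin basic protein, and Tshz1. On chromosome 4, from 112000001 to 114000000, a stretch whose 8 protein-coding genes all belong to the Skint family, dCD had 1294 reads and dKO 6635, a ratio of 0.186, with 0.227 in naive cells and dKO over control at 0.986. Chromosome 6 as a whole had 1.06 times the share, 1.11 in naive cells, and held 9 of the 24 windows. Regional differences in labelling and in the DNA content or mappability of the parental lines cannot be told apart here.

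**Figure D5:**
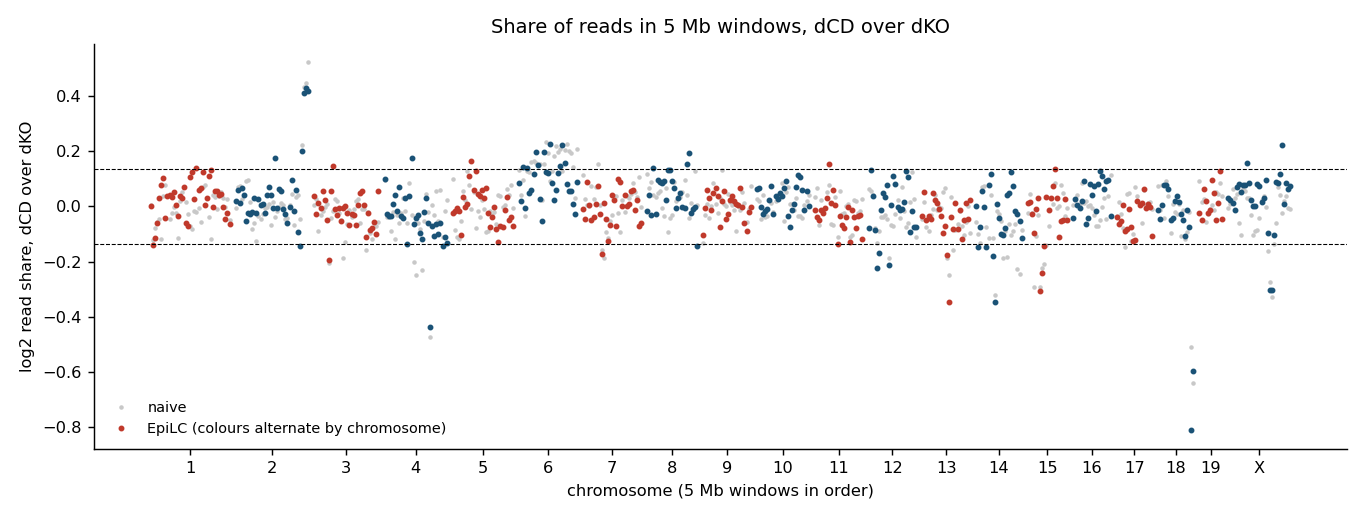
Log2 of the read share in dCD over that in dKO (y axis) in 514 windows of 5 Mb ordered along the chromosomes (x axis), EpiLC in colour and naive in grey; dashed lines mark 1.1-fold. Distal chromosome 2 stands above and distal chromosome 18 below all other windows, chromosome 6 lies mostly above 0, and the naive points follow at these places.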

How the data were processed

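Okazaki fragments of mouse EpiLCs and naive ESCs had been labelled with 25 µM EdU for 2 min, purified and sequenced. The authors deposited 1 read density table per group, Watson and Crick density per 1 kb bin (reads per base) with both replicates summed, from reads aligned to mm10 with bowtie2. The submitters' processing notes name FastQC, Trim Galore, Bowtie2 and Picard, and the builds mm10 and hg19. Versions and the treatment of duplicates are not given in the sources used here. Densities times 1000 gave whole reads, and 126 bins of over 10 times the median were left out.

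Crick percentages were computed with Python 3.11.15 and numpy 2.4.6 in windows with at least 100 (50 kb), 500 (500 kb) or 5000 reads (5 Mb), and strand bias with at least 25 reads per 25 kb side at GENCODE vM21 protein-coding TSSs. Intervals are Wilson, Newcombe or normal intervals at 95% and cover counting error only, since PCR copies are not independent molecules. They do not allow for the choice of windows and genes by the size of the same difference. For means over sites, reads shared by overlapping flanks entered the error once. No interval was computed for the naive values of the gene lists and their members, which rest on fewer reads than the EpiLC values. Scripts were tested on simulated data. Named were the 8 highest and lowest TSSs with 100 reads a side, keeping 1 per 50 kb, the 5 highest and lowest windows of 500 kb and 5 Mb, and the extremes of each list, of which some are not reported here. Members and lists were chosen with earlier results of these data known. Sides of 100 and 250 kb, the stretches around named loci and the blocks of read share were added after seeing the data. Alternatives were other thresholds, sides and window positions, removal of the part of the Crick percentage that follows local T minus A content (the composition part), and division by amplitude.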

Additional observations from a re-analysis of the deposited data

Results flagged for a closer look

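Chromosome Y, which none of the comparisons used, had 906 of every 1000000 reads in EpiLC dKO, above the 839 of the EpiLC control, against 722 in EpiLC dCD. In naive cells the values were 911 in dKO, 844 in the control and 687 in dCD. In the first 3500 kb of the chromosome the EpiLC tracks had 266, 234 and 223 of every 1000000 reads in dKO, control and dCD.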

How the results depend on the processing

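Of 117 alternatives over 25 results, 70 stayed within the counting interval or 1.5 times the count, 41 moved and 6 reversed, and every alternative of the gene lists was among the 70. Within these intervals 5 lists nevertheless changed sign after division by amplitude, KMT2 subunits to -0.802, licensing factors to -0.602, Okazaki fragment enzymes to -0.167, timing and fork regulators to -0.0515 and zinc finger genes to -0.579, and formative factors went from 2.68 to 1.104. No paired analysis was possible because the replicates of each group were summed before deposit, and for the same reason no replicate could be left out. The TSS difference of 0.378 points was -0.0417 with 10 kb a side and -0.285 after division by amplitude, 0.511 at TSSs with no other within 50 kb, and, chosen after seeing the data, 0.541 with 100 kb and 0.661 with 250 kb. TSS counts were 905 higher and 818 lower at 15 points, and 58 and 59 at 25. Counts of 50 kb windows were 1731 and 1782 at 10 points, 24 and 17 at 20, and 107 and 108 after division by amplitude. Counts of 500 kb windows were 141 and 143 at 5 points, 0 and 0 at 15, 0 and 2 after division by amplitude, and 5 and 3 with windows shifted by 250 kb. The amplitude ratio rose to 1.201 (50 kb) and 1.24 (500 kb) once the composition part was removed. The amplitudes themselves then fell to 9.75 points in dCD and 8.12 in dKO at 50 kb, and to 6.86 and 5.55 at 500 kb. Counts of read share were 97 and 79 at a threshold of 5%, 3 and 8 at 20%, and 116 and 85 in 2 Mb windows. The initiation zone difference of -0.0278 was 0.326 at a zone threshold of 20 points, 0.246 with zones of the naive control, -0.172, 0.406, 1.48 and 2.67 with 10, 50, 100 and 250 kb a side, 0.144 without the composition part and -0.898 after division by amplitude. The termination zone difference of 0.131 was 0.287 at 20 points, -0.171 with naive zones, 0.234, 0.0130, -0.651 and -1.55 with 10, 50, 100 and 250 kb, -0.0451 without the composition part and 0.933 after division. The causes were not tested. Depth limits single TSSs most, where binomial counting gives 8.47 against a spread of 8.64 points.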

Other observations

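Among the other 5 Mb windows at the ends of the read share ratio, that on chromosome X from 145000001 was 1.17 times as high in EpiLC dCD as in dKO but 0.983 in naive cells, and that on chromosome 6 from 75000001 was 1.17 in EpiLCs and 1.07 in naive cells. The windows on chromosome 14 from 50000001 and on chromosome 13 from 65000001 were 0.786 and 0.787 in EpiLCs, and 0.8004 and 0.842 in naive cells.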
